A study of Schizosaccharomyces pombe with 31 samples.

Results

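The hexose transporter family of the fission yeast *Schizosaccharomyces pombe* was taken as the 8 genes *ght1+* to *ght8+*, found by their systematic identifiers (SPCC548.07c, SPBC4B4.08, SPAC1F8.01, SPBC1683.08, SPCC1235.14, SPCC1235.13, SPBC1348.14c and SPCC548.06c). All 8 were present among the 7001 gene rows of each of 2 RNA-seq tables. The time course table held 27 libraries of 3 h- strains, which were 972 wild type, *igo1*∆ (*igo1::kanMX6*, without the Endosulfine that inhibits the phosphatase PP2A/B55 once phosphorylated) and *ppk18*∆ *cek1*∆ (*ppk18::KanMX6 cek1::natMX6*, without the Greatwall kinases that phosphorylate Igo1). Each strain was grown to exponential phase in minimal medium (MM) and then moved to minimal medium without a nitrogen source (MM-N) for 1 h or 4 h, with 3 biological replicates of each. For the move the cells were centrifuged and washed in MM-N, and no group was washed and returned to MM. In changes from MM, the loss of nitrogen cannot be told apart from washing and fresh medium. The overexpression table held 2 libraries of wild type and 2 of an h- strain with *ppk18+* fused to GFP under the *nmt1* promoter (*P3-nmt1-GFP-ppk18*), in MM with nitrogen after 20 h without thiamine, the vitamin that represses this promoter. The sample labels call the deletions knockdowns and give the overexpression samples a time of 0 h, whereas their protocol gives 20 h. Nothing in the labels says whether the 3 times of a replicate came from the same culture.

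Ght proteins are sugar transporters of the plasma membrane, members of the major facilitator family, and carry hexoses into the cell down their gradient or with protons. Ght5 is the main high-affinity glucose transporter and is required for growth when glucose is scarce, Ght1 and Ght2 also carry glucose, Ght3 takes up gluconate and Ght6 prefers fructose, while Ght4, Ght7 and Ght8 are less well described. Glucose represses several of these genes through the zinc finger repressor Scr1, which the AMP-activated kinase Ssp2 counteracts, and the TORC2 and Gad8 kinases and the arrestin Aly3 decide how much Ght5 stays at the cell surface.

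Members of the family are alike in sequence, which bears on how far reads can be told apart. The RefSeq annotation and genome (assembly ASM294v3) were used here for names, lengths, neighbours, overlaps and shared sequence. In it, 596 of the 2015 exon windows of 50 bases of *ght5+* (29.6%) were found again, base for base, in *ght8+*. These were 24.2% of the windows of *ght8+*. *ght3+* and *ght4+* shared 212 windows, which were 11.8% of those of *ght3+* and 5.65% of those of *ght4+*. *ght1+* shared 134 windows with *ght5+* and 147 with *ght8+*. *ght6+* shared 33 windows with *ght1+* and 32 each with *ght5+* and *ght8+*. *ght2+* and *ght7+* shared none with any other place in the genome. *ght5+*, *ght6+*, *ght8+* and *ght1+* all lie on chromosome III, and *ght8+* and *ght1+* are next to each other on the same strand. How the counting treated reads that match 2 genes is not given in the sources used here. The values of *ght1+*, *ght5+*, *ght6+* and *ght8+*, and of *ght3+* and *ght4+*, may thus each hold or lack shared reads. Noncoding genes on the opposite strand overlapped 7 members, all except *ght5+*. The library kit marks the strand. Whether the counting used it is not given in the sources used here, and whether these members hold reads of the partner was not tested. On the same strand, SPNCRNA.298 covered 19.7% of *ght4+* and had 0 counts in every group. *ght6+* lay entirely (100% of its length) inside SPNCRNA.1118, an antisense RNA with a mean normalized count of 1169 ± 104 (SD, n = 3) in wild type in MM. In the same libraries *ght6+* itself had 9.80 ± 4.07.

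Between 14921656 and 22464897 reads per library were counted on genes in the time course, and between 14612909 and 18846318 in the overexpression experiment. In the libraries labelled *ppk18*∆ *cek1*∆, *ppk18+* stood at 198 ± 21.2 normalized counts in MM against 4215 ± 384 in wild type (SD, n = 3 each), and *cek1+* at 74.7 ± 78.1 against 2978 ± 88.6. In the libraries labelled *igo1*∆, *igo1+* stood at 2061 ± 129 in MM against 3175 ± 156 in wild type. It was lower in every one of these 9 libraries than in every wild type library of the time course, but far from 0. Which part of the transcript the deletion removes was not tested, so directions in that strain rest on its label. In the overexpression experiment *ppk18+* rose from 4968 ± 1.70 to 359073 ± 21109 (SD, n = 2). The strains are M cells by their labels. Genes of the opposite mating type had group means from 26.3 to 88.7 for *map2+* and from 129 to 245 for *map3+*. The lowest group means of M cell genes lay in or below these ranges (20.85 for *mfm1+*), so the mating type rests on the labels. The M cell pheromone gene *mfm1+* reached 8305 ± 2138 in wild type after 4 h against 29.6 ± 28.0 in *igo1*∆ and 27.4 ± 5.78 in *ppk18*∆ *cek1*∆, and the part of this difference in that of the *ght* genes was not tested. In bulk cultures, a change in some cells and a smaller change in all cells cannot be told apart. Normalized counts are relative to the other genes, so that less RNA per cell would not be seen.

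In exponentially growing wild type cells, 3 members made up nearly all of the family. Per kb of exon, a scale on which different genes can be compared, *ght8+* had a level of 10819 ± 1362 normalized counts (SD, n = 3), *ght5+* 3396 ± 670 and *ght2+* 2146 ± 136. They were followed by *ght1+* at 97.5 ± 19.6 and *ght4+* at 90.4 ± 12.8, which did not differ beyond their spread. *ght3+*, the gluconate transporter, stood at 34.0 ± 6.57 per kb. *ght6+* at 4.94 ± 2.05 and *ght7+* at 2.67 ± 1.19 per kb came last and did not differ beyond their spread, with 6 to 11 reads a library for *ght6+* and 3 to 5 for *ght7+*. All 8 members passed the minimum mean of 10 normalized counts over the 27 libraries, *ght6+* with a mean of only 12.2.

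The first comparison asked how the family responds to the move to MM-N in wild type cells. After 1 h in MM-N the major transporters fell and the gluconate transporter rose. Of the 8 members tested, 5 fell (*ght1+*, *ght2+*, *ght4+*, *ght5+* and *ght8+*), 2 rose (*ght3+* and *ght7+*) and *ght6+* did not pass the test. The background was large, since of the 6036 genes tested 40.3% were called higher and 37.5% lower at an adjusted p under 0.05 by limma with Benjamini-Hochberg adjustment (2432 and 2264 genes, or 3716 and 1295 when all libraries were brought to equal totals). The median log2 change of the members was -0.57 and that of all genes 0.04.

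*ght5+* stood at 7781, 5414 and 7835 normalized counts in the 3 wild type libraries in MM and at 4353, 1354 and 1480 after 1 h. Every starved library was below every library in MM, with replicate 1 the highest of those starved. The fall was 2.93-fold between the means (log2 change -1.75 ± 0.47 SE, adjusted p = 0.00176 by limma). *ght8+*, the most abundant member, fell from 27895, 23429 and 30145 to 13275, 9146 and 10037 with no overlap of the groups. That was a 2.51-fold fall (log2 change -1.34 ± 0.18 SE, limma adjusted p = 3.68e-07). *ght2+* fell 1.55-fold, from 5093, 4513 and 4976 to 3025, 3148 and 3259, again without overlap (limma adjusted p = 2.48e-07). The falls of *ght4+* (log2 change -0.51, limma adjusted p = 0.0085) and *ght1+* (-0.79, adjusted p = 0.0121) were smaller, and the *ght1+* groups overlapped. Both lost their call with equal library totals (*ght4+* -0.08 and *ght1+* -0.37, adjusted p = 0.665 and 0.213 by limma), a scaling that moves the median of all genes in this comparison to 0.47, and *ght1+* also without replicate 3 at 1 h (-0.54, adjusted p = 0.0957).

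*ght3+* went the other way. Its counts were 61.7, 75.6 and 51.4 in MM and 213, 208 and 227 after 1 h, a 3.43-fold rise with the groups far apart (log2 change 1.78 ± 0.16 SE, limma adjusted p = 5.69e-10). *ght7+* was barely detected in MM, at 6.57, 3.44 and 3.02 normalized counts from 3 to 5 reads, and reached 56.9, 46.2 and 57.3 after 1 h. The means differed 12.3-fold, and the fitted log2 change of 3.40 depended on the pseudocount of 1 (2.15 with a pseudocount of 10), with limma adjusted p = 1.78e-11. *ght6+* gave 14.5, 6.88 and 8.06 in MM and 15.1, 15.1 and 9.69 after 1 h, and the groups overlapped.

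By 4 h in MM-N *ght5+* and *ght8+* of wild type cells were back in the range they had in MM, and *ght2+* was above it. *ght5+* reached 9698, 5813 and 6311 and *ght8+* 28735, 24150 and 24848, both overlapping with MM. The difference from MM was 0.04 for *ght5+* on the log2 scale (95% interval -0.93 to 1.01) and -0.06 for *ght8+* (-0.43 to 0.31), and the latter turned to 0.41 with equal library totals and 0.61 with quantile normalization. None of the 8 members was called lower than in MM and 3 were called higher, against 39.9% of the 6036 genes called higher and 39.4% lower (or 62.3% and 22.3% with equal library totals, where the median of all genes is again 0.47). These 3 were *ght3+* at 236, 241 and 240 (log2 change 1.93 ± 0.16 SE, limma adjusted p = 1.3e-10), *ght7+* at 40.0, 48.0 and 32.2 (2.98 ± 0.25 SE, adjusted p = 1.87e-10) and *ght2+* at 6036, 5439 and 5611 (0.23 ± 0.08 SE, adjusted p = 0.0134). The small rise of *ght2+* lost its call without replicate 2 in MM or replicate 1 at 4 h (adjusted p = 0.0781 and 0.0669 by limma).

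Between 1 h and 4 h, 5 members rose in wild type and none fell, where 27.1% of the genes tested rose and 30.7% fell. *ght5+* rose 3.04-fold (log2 change 1.78 ± 0.47 SE, limma adjusted p = 0.00238), *ght8+* 2.40-fold (1.27 ± 0.18 SE, adjusted p = 2.15e-06) and *ght2+* 1.81-fold (0.86 ± 0.08 SE, adjusted p = 6.41e-09). *ght1+* and *ght4+* rose by less, 1.53-fold and 1.38-fold (limma adjusted p = 0.0422 and 0.0221), and both lost the call when replicate 2 or 3 at 1 h, or replicate 1 at 4 h, was left out. The call of *ght1+* was also lost without replicate 3 at 4 h and by DESeq2 (adjusted p = 0.0669 and 0.0653). The 5 members that fell at 1 h were the 5 that rose from 1 h to 4 h. Both comparisons use the same libraries at 1 h, so a low level in these enters both. *ght3+* kept its raised level, with a log2 difference between 4 h and 1 h of 0.15 (95% interval -0.19 to 0.48). That of *ght7+* was -0.42 (-0.94 to 0.11) and did not pass the test by limma, but was called a fall by edgeR (-0.40, adjusted p = 0.035), by DESeq2 (-0.42, 0.0484) and by limma with a pseudocount of 10 (-0.35, 0.03).

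**Figure D1:**
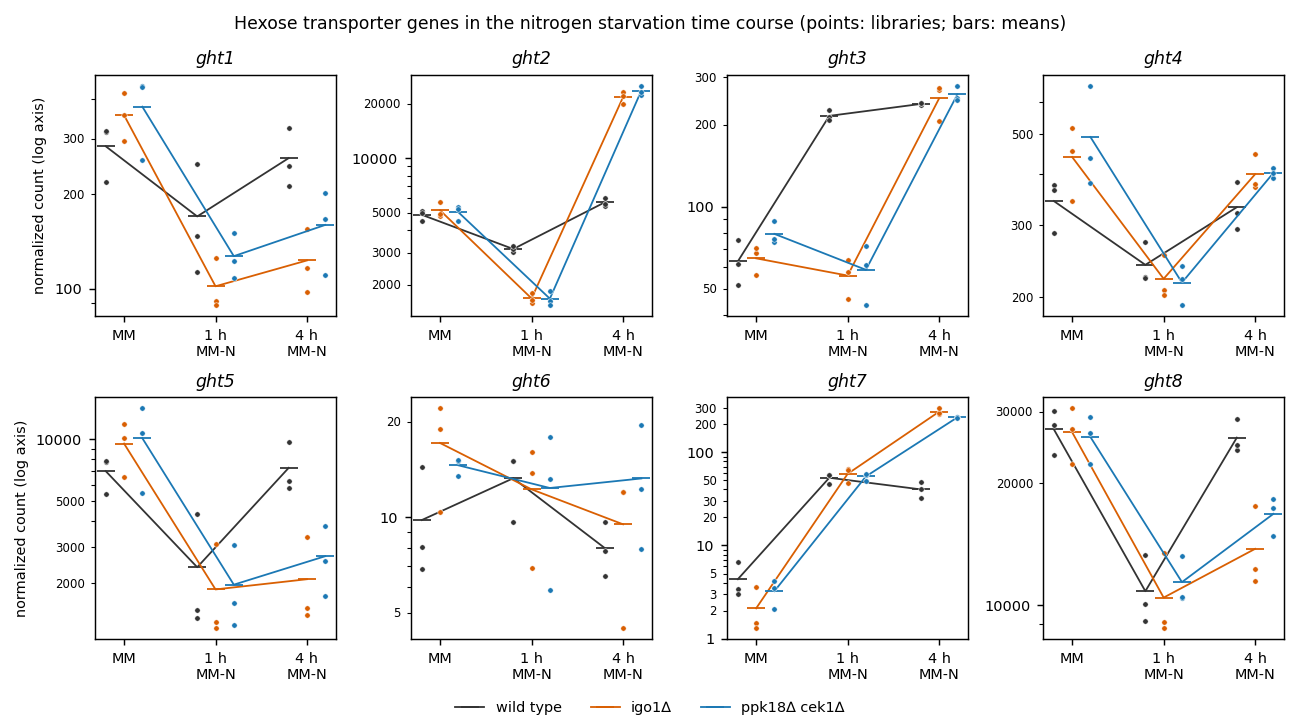
Normalized counts of the 8 *ght* genes (log axes, which differ between genes) by strain, in MM and at 1 h and 4 h of MM-N. Points are the 3 libraries of each group, short bars their means, and lines join the means of a strain. In wild type *ght5+* and *ght8+* fall at 1 h and return at 4 h, whereas in both mutants they are still below wild type at 4 h and *ght2+* and *ght7+* rise far above wild type.

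The mutants were then compared with wild type at each time, to ask what the Greatwall-Endosulfine switch changes in the family. In MM none of the 8 members was called in either mutant. Few genes were called at all (2.15% of 6036 in *igo1*∆ and 1.67% in *ppk18*∆ *cek1*∆). At an unadjusted p under 0.05 were *ght7+* in *igo1*∆ and *ght3+* and *ght4+* in *ppk18*∆ *cek1*∆, by limma. The edgeR and DESeq2 fits called no member either. *ght5+* stood at 10152, 6559 and 11909 in *igo1*∆ and 10779, 5480 and 14127 in *ppk18*∆ *cek1*∆, in each case overlapping with wild type. Its log2 difference from wild type was 0.42 (95% interval -0.55 to 1.39) and 0.45 (-0.52 to 1.42). *ght8+* was closer, with differences of -0.03 (-0.40 to 0.34) and -0.06 (-0.43 to 0.30).

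After 1 h in MM-N the mutants lacked the rise of *ght3+* and held less *ght2+* than wild type. Of the 8 members, 3 were called lower and none higher in *igo1*∆ (29.9% of 6036 genes lower and 32.6% higher), and 2 lower and none higher in *ppk18*∆ *cek1*∆ (28.7% lower and 30.5% higher, or 1733 and 1839 genes, which became 2037 and 1432 with equal library totals). *ght3+* stood at 45.9, 63.9 and 57.7 in *igo1*∆ and at 71.5, 43.5 and 60.8 in *ppk18*∆ *cek1*∆, near the 51.4 to 88.5 seen in MM over the 3 strains, against 208 to 227 in wild type at 1 h. It was thus 3.87-fold lower in *igo1*∆ (log2 difference -1.95 ± 0.16 SE, limma adjusted p = 4.6e-10) and 3.69-fold lower in *ppk18*∆ *cek1*∆ (-1.89 ± 0.16 SE, adjusted p = 9.23e-10).

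*ght2+*, a glucose transporter, fell further in both mutants than in wild type. It was at 1807, 1572 and 1649 in *igo1*∆ and 1848, 1626 and 1541 in *ppk18*∆ *cek1*∆, and all 6 libraries lay below the 3025 to 3259 of wild type. The log2 difference was -0.91 ± 0.08 SE in each (limma adjusted p = 1.68e-09 and 1.98e-09). *ght1+* was lower in *igo1*∆ (125, 91.5 and 88.8 against 249, 148 and 113, log2 difference -0.67, limma adjusted p = 0.0388), with overlap between the groups. This call did not hold without wild type replicate 1 (-0.36) or 2 (-0.73), or without *igo1*∆ replicate 2 (-0.60) or 3 (-0.58), with adjusted p from 0.0508 to 0.276 by limma. In *ppk18*∆ *cek1*∆ its difference was -0.35 (95% interval -0.92 to 0.22). The fall of *ght5+* and *ght8+* at 1 h was present in all strains. *ght5+* was at 3090, 1305 and 1216 in *igo1*∆ and 3060, 1256 and 1600 in *ppk18*∆ *cek1*∆, and the difference from wild type did not pass the test in either (limma adjusted p = 0.623 and 0.776). With the replicate number as a block in a fit of these 2 groups alone, the difference of -0.28 in *igo1*∆ passed (limma adjusted p = 0.0119), and *igo1*∆ was lower than wild type for each of the 3 numbers. *ght7+*, at 46.6 to 65.6 in both mutants, rose at 1 h as in wild type, with differences from it of 0.13 (95% interval -0.40 to 0.65) and 0.05 (-0.48 to 0.58).

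After 4 h in MM-N the family was rearranged in both mutants. The same 5 members were called in either strain, with *ght2+* and *ght7+* higher than in wild type and *ght1+*, *ght5+* and *ght8+* lower, 2 and 3 of the 8. Of all 6036 genes, 38.8% were called higher and 36.4% lower in *igo1*∆, and 37.6% and 34.8% in *ppk18*∆ *cek1*∆. The number of members called did not stand out from these shares. In numbers these were 2341 higher and 2195 lower, and 2271 and 2103, which became 1714 and 2814, and 1558 and 2846, with equal library totals, a scaling that moves the median of all genes to -0.15 and -0.16. Both mutants were compared with the same wild type libraries.

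Of the differences from wild type at 4 h, that of *ght2+* had the smallest adjusted p among the members in each mutant. It stood at 6036, 5439 and 5611 in wild type, at 20008, 23222 and 21915 in *igo1*∆ and at 22468, 23143 and 25203 in *ppk18*∆ *cek1*∆. The lowest mutant library was thus far above the highest of wild type, and the SD within a group was at most 1616. The mutants held 3.81-fold and 4.14-fold more (log2 difference 1.93 ± 0.08 SE and 2.05 ± 0.08 SE, limma adjusted p = 7.89e-16 and 3.35e-16). From 1 h to 4 h *ght2+* rose 13.0-fold in *igo1*∆ and 14.1-fold in *ppk18*∆ *cek1*∆, against 1.81-fold in wild type. The change from MM to 4 h was larger than in wild type by 1.85 ± 0.12 SE on the log2 scale in *igo1*∆ and by 2.01 ± 0.12 SE in *ppk18*∆ *cek1*∆ (limma interaction terms, adjusted p = 2.79e-12 and 8.09e-13). By this test of the difference in change, 5 members differed from wild type at 4 h in *igo1*∆ and 4 in *ppk18*∆ *cek1*∆ (64.3% and 61.0% of all genes), and at 1 h 4 and 3 did (47.8% and 45.3%).

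*ght7+* also rose further in the mutants. It reached 258, 267 and 297 in *igo1*∆ and 240, 239 and 236 in *ppk18*∆ *cek1*∆ after 4 h, where wild type had 40.0, 48.0 and 32.2. The difference was 6.84-fold and 5.95-fold (log2 difference 2.76 ± 0.25 SE and 2.56 ± 0.25 SE, limma adjusted p = 1.23e-09 and 5.19e-09), and with a pseudocount of 10 it was 2.51 and 2.32. In wild type the level at 4 h was no higher than at 1 h (a fall by the count models, as given above), whereas in the mutants it rose 4.66-fold and 4.31-fold between these times (limma adjusted p = 6.05e-08 and 1.51e-07).

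The members called lower were *ght5+*, *ght8+* and *ght1+*, whose ranges in wild type at 4 h overlapped with those in MM. *ght5+* was at 3359, 1407 and 1521 in *igo1*∆ and 3819, 1732 and 2582 in *ppk18*∆ *cek1*∆, all below the lowest wild type library of 5813. This was 28.8% of wild type in *igo1*∆ (log2 difference -1.88 ± 0.47 SE, limma adjusted p = 0.00101) and 37.3% in *ppk18*∆ *cek1*∆ (-1.46 ± 0.47 SE, adjusted p = 0.00784). Between 1 h and 4 h its log2 change was 0.18 in *igo1*∆ (95% interval -0.79 to 1.15) and 0.49 in *ppk18*∆ *cek1*∆ (-0.48 to 1.46), against 1.78 in wild type. *ght8+* was at 17585, 11460 and 12258 in *igo1*∆ and 17326, 14786 and 18283 in *ppk18*∆ *cek1*∆, below the 24150 to 28735 of wild type. That was 53.1% and 64.8% of wild type (log2 difference -0.93 ± 0.18 SE and -0.63 ± 0.18 SE, limma adjusted p = 5.84e-05 and 0.00322). *ght1+* was at 155, 97.9 and 116 in *igo1*∆ and 166, 110 and 202 in *ppk18*∆ *cek1*∆, against 324, 212 and 245 in wild type (limma adjusted p = 0.00128 and 0.0228). In *ppk18*∆ *cek1*∆ its call was lost without wild type replicate 1 (-0.55) or mutant replicate 2 (-0.48), with adjusted p = 0.112 and 0.148 by limma.

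*ght3+* had caught up by 4 h. It was at 207, 270 and 274 in *igo1*∆ and 252, 246 and 279 in *ppk18*∆ *cek1*∆, against 236 to 241 in wild type, and the log2 differences were 0.06 (95% interval -0.28 to 0.39) and 0.11 (-0.22 to 0.45). The rise that wild type had completed by 1 h thus took place between 1 h and 4 h in the mutants (4.49-fold and 4.42-fold, limma adjusted p = 4.49e-11 and 4.67e-11). *ght4+* differed from wild type by 0.27 (-0.08 to 0.62) and 0.29 (-0.06 to 0.63), which did not pass the test. It was called higher in both mutants with only the groups compared in the fit (limma adjusted p = 0.0424 and 0.0309) and with quantile normalization (0.38 in each, 0.0371 and 0.0358). *ght6+* had 4.47 to 19.6 normalized counts in all starved mutant libraries at 4 h.

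**Figure D2:**
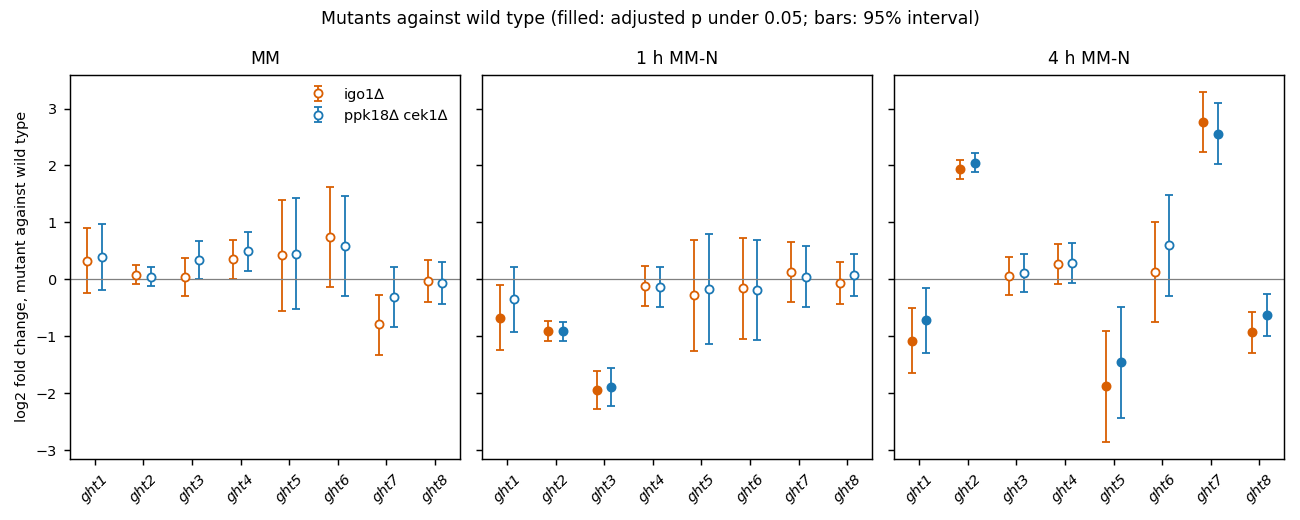
Log2 fold change of each *ght* gene in *igo1*∆ (orange) and *ppk18*∆ *cek1*∆ (blue) against wild type at each of the 3 times, with 95% intervals from limma. Filled points passed the test, which is no gene in MM, *ght2+* and *ght3+* in both mutants (and *ght1+* in *igo1*∆) at 1 h, and *ght1+*, *ght2+*, *ght5+*, *ght7+* and *ght8+* in both at 4 h.

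Within each mutant, the change from MM to 1 h lowered more members than it raised. In *igo1*∆ 5 members fell and *ght7+* rose (38.1% of genes lower and 39.7% higher), and in *ppk18*∆ *cek1*∆ 6 fell and *ght7+* rose (38.2% lower and 39.2% higher). The falls of *ght5+* were 5.10-fold and 5.14-fold, those of *ght2+* 3.07-fold and 3.01-fold and those of *ght8+* 2.56-fold and 2.28-fold. The further member in *ppk18*∆ *cek1*∆ was *ght3+* (log2 change -0.46, limma adjusted p = 0.0132), a call lost without its replicate 2 in MM (-0.38) or at 1 h (-0.26) and with equal library totals (-0.11), with adjusted p of 0.0621, 0.137 and 0.543 by limma. At 4 h against MM, 3 members were higher (*ght2+*, *ght3+* and *ght7+*) and 3 lower (*ght1+*, *ght5+* and *ght8+*) in both mutants, where 42.1% and 41.2% of genes were higher and lower in *igo1*∆ and 41.9% and 40.9% in *ppk18*∆ *cek1*∆. The call of *ght8+* in *ppk18*∆ *cek1*∆ (log2 change -0.63) was lost with equal library totals (-0.35, limma adjusted p = 0.0684) and with quantile normalization (-0.28, 0.194). With equal library totals, 3652 genes were higher and 1325 lower at 1 h in *igo1*∆ (in place of 2399 and 2300) and 3552 and 1371 in *ppk18*∆ *cek1*∆ (2369 and 2308). At 4 h they were 3282 and 1791 (2542 and 2488) and 3234 and 1798 (2529 and 2466). From 1 h to 4 h, 5 members rose (*ght2+*, *ght3+*, *ght4+*, *ght7+* and *ght8+*) and none fell in each mutant (33.8% higher and 36.3% lower of all genes in *igo1*∆, 34.0% and 35.9% in *ppk18*∆ *cek1*∆). The rise of *ght8+* in *igo1*∆ was at the threshold (log2 change 0.40, limma adjusted p = 0.049) and did not hold without replicate 2 or 3 at 1 h or replicate 1 at 4 h (adjusted p from 0.171 to 0.313), with equal library totals (0.30, 0.13), with quantile normalization (0.23, 0.292) or by DESeq2 (0.0652). *ght7+* started from 1 to 3 reads per library in MM in both mutants, so its fold from MM is not given. Its counts in MM were 1.47, 1.30 and 3.57 in *igo1*∆ and 4.11, 2.08 and 3.50 in *ppk18*∆ *cek1*∆.

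The 2 mutants were also set against each other, since Igo1 is phosphorylated by Ppk18 and Cek1. No member was called between them in MM, at 1 h or at 4 h by limma, edgeR or DESeq2 (0.249%, 0.265% and 6.00% of 6036 genes by limma), and none of the 8 had an unadjusted p under 0.05 at any time. At 4 h the log2 difference of *igo1*∆ from *ppk18*∆ *cek1*∆ was -0.12 for *ght2+* (95% interval -0.29 to 0.05), 0.20 for *ght7+* (-0.33 to 0.73), -0.42 for *ght5+* (-1.39 to 0.55) and -0.31 for *ght8+* (-0.68 to 0.06). The interval of *ght2+* is narrow, while that of *ght5+* would hold a difference of 1 on this scale.

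Summed over the 8 members, the family's level per kb of exon was 16591 ± 2160 normalized counts in wild type in MM, 7137 ± 1672 after 1 h and 16696 ± 2171 after 4 h (SD, n = 3). In *igo1*∆ it was 17816 ± 3098, 5969 ± 1605 and 16543 ± 1192, and in *ppk18*∆ *cek1*∆ 17792 ± 3428, 6405 ± 1185 and 18881 ± 1401. As a share of all normalized counts, without length correction, the family held 0.183% ± 0.0218 in wild type in MM and 0.255% ± 0.0354 at 4 h. At 4 h it held 0.218% ± 0.0148 in *igo1*∆ and 0.248% ± 0.00857 in *ppk18*∆ *cek1*∆. The per-kb sums at 4 h overlapped between strains (15152 to 19179 in wild type, 15768 to 17915 in *igo1*∆, 17374 to 20143 in *ppk18*∆ *cek1*∆). The shares of *ght2+*, *ght5+* and *ght8+* in these sums did not overlap between wild type and either mutant. *ght8+* made up 65.2% ± 1.15 of the sum in wild type in MM and 62.0% ± 2.03 at 4 h, but 32.9% ± 5.50 in *igo1*∆ and 35.4% ± 1.28 in *ppk18*∆ *cek1*∆ at 4 h. *ght2+* held 13.0% ± 1.02 in wild type in MM and 15.2% ± 1.09 at 4 h, and 58.3% ± 7.94 and 55.3% ± 3.47 in the 2 mutants at 4 h. The share of *ght5+*, the high-affinity glucose transporter, was 20.8% ± 3.20 in wild type at 4 h and 6.01% ± 2.67 and 6.90% ± 2.50 in the mutants. Per kb, the order in wild type at 4 h was *ght8+*, *ght5+*, *ght2+*, *ght3+*, *ght1+*, *ght4+*, *ght7+* and *ght6+*. In both mutants it was *ght2+*, *ght8+*, *ght5+*, *ght7+*, *ght3+*, *ght4+*, *ght1+* and *ght6+*, where *ght7+* at 168 ± 12.5 and *ght3+* at 135 ± 20.1 in *igo1*∆ lay close together, and *ght7+* at 146 ± 1.21 and *ght3+* at 140.0 ± 9.60 in *ppk18*∆ *cek1*∆ did not differ beyond their spread.

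**Figure D3:**
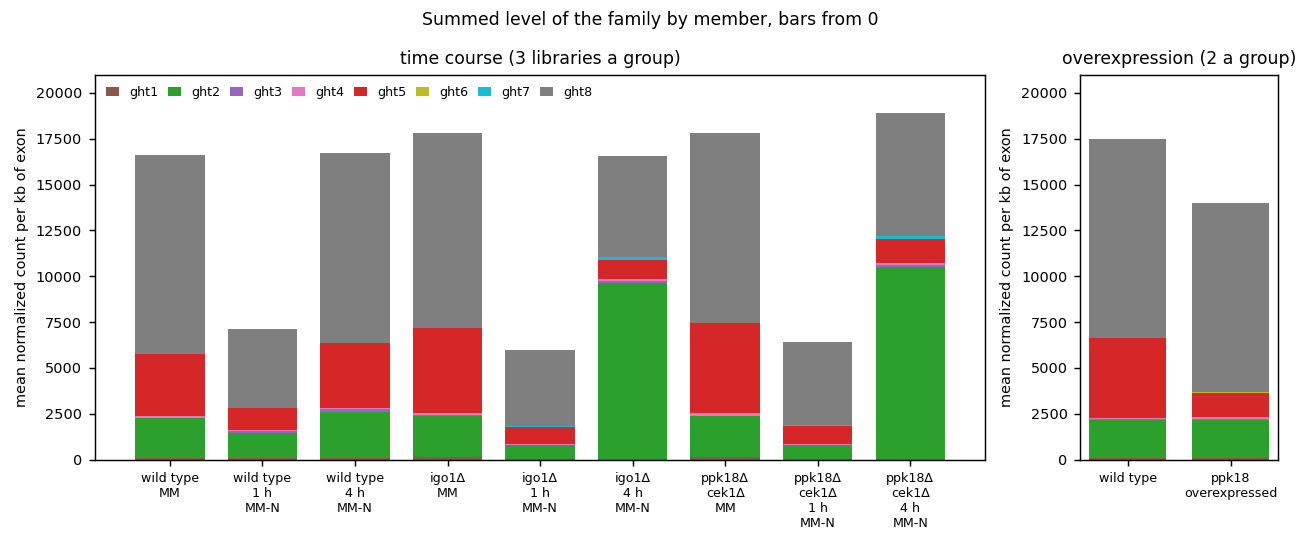
Mean normalized count per kb of exon of the 8 *ght* genes, stacked by group, with bars from 0 (3 libraries a group in the time course, left, and 2 in the overexpression experiment, right; the tables were normalized separately). The sum is lowest at 1 h in MM-N in each strain, and at 4 h the mutants reach a sum like that of wild type with more *ght2+* and less *ght8+* and *ght5+*.

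For 4 members the replicate numbers ranked alike across groups. *ght4+* and *ght5+* were highest in replicate 1 in 6 of the 6 starved groups, and *ght1+* and *ght8+* in 5 of 6 each, while in MM replicate 2 was the lowest in 3 of 3 strains for each of these genes. The highest library of a group held between 1.45 and 3.21 times as much *ght5+* as the lowest, between 1.06 and 1.73 times as much *ght4+* and between 1.19 and 1.53 times as much *ght8+*. *ght2+* varied least (1.08 to 1.20), while *ght6+* (up to 3.04) and *ght7+* (up to 2.74), varied more and were highest in replicate 1 in 2 and 1 of the 6 starved groups. What sets replicate 1 apart is not given by the labels and was not tested. Without replicate 1 of all 9 groups, *ght5+* kept each of its calls above, and *ght1+* lost its call at 1 h in *igo1*∆ (-0.51, limma adjusted p = 0.164) and at 4 h in *ppk18*∆ *cek1*∆ (-0.60, adjusted p = 0.0882). *ght4+* then lost its rise from 1 h to 4 h in wild type (0.45, adjusted p = 0.101 by limma). Over the 27 libraries, Pearson's r of the log2 counts was 0.96 between *ght1+* and *ght5+*, 0.95 between *ght5+* and *ght8+* and 0.91 between *ght1+* and *ght8+*, 3 genes that share stretches of sequence as given above. It was 0.08 between *ght2+* and *ght5+*. These values describe points that share strains, times and libraries.

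**Figure D4:**
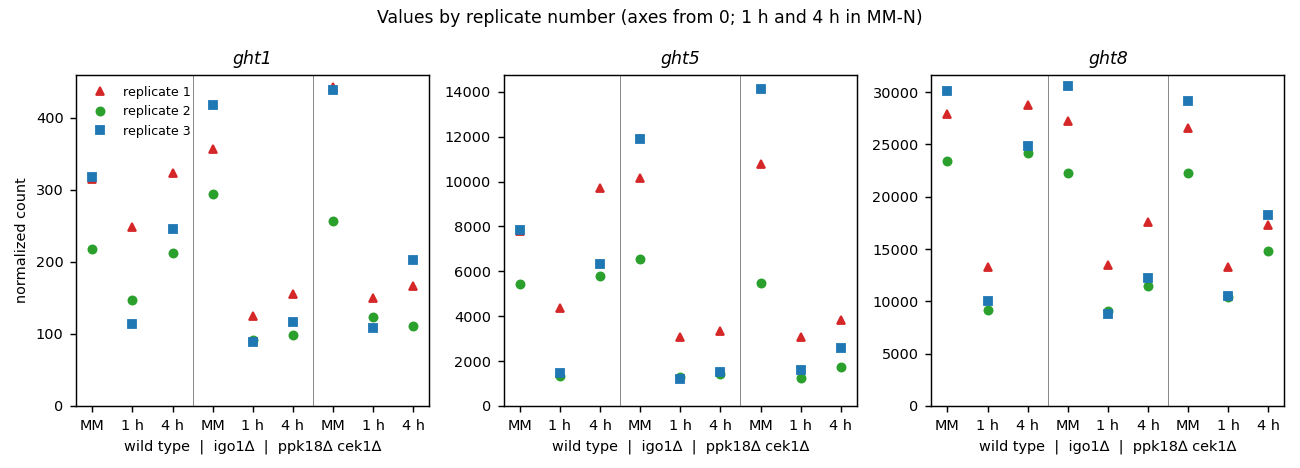
Normalized counts of *ght1+*, *ght5+* and *ght8+* by replicate number in the 9 groups of the time course (axes from 0, the 3 strains from left to right, each in MM, at 1 h and at 4 h). Replicate 1 (triangles) is the highest in most starved groups and replicate 2 (circles) the lowest in MM.

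Overexpression of *ppk18+* in medium with nitrogen asked the converse question. *ght5+* was lower and *ght3+* higher, and the other members tested were not called. Of the 6 members that passed the minimum mean (*ght6+* and *ght7+* did not), 1 was called lower and 1 higher, where 27.8% of 5863 genes were lower and 29.6% higher. *ght5+* had 9652 and 8205 normalized counts in wild type and 3125 and 2384 with *ppk18+* overexpressed. This was 30.9% of wild type (log2 difference -1.70 ± 0.12 SE, limma adjusted p = 2.42e-06). *ght3+* had 75.9 and 63.7 against 109 and 120, a 1.64-fold rise (0.71 ± 0.18 SE, limma adjusted p = 0.00724), and its call was lost without overexpression replicate 2 (0.64, adjusted p = 0.0516) and with no filter on low counts (adjusted p = 0.0594).

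*ght8+*, which shares sequence with *ght5+*, stayed at 26678 and 25222 against 27895 and 26543 (-0.07, 95% interval -0.22 to 0.09). *ght2+* was at 4798 and 4614 against 4715 and 4614 (0.01, -0.11 to 0.13), and *ght4+* at 367 and 380 against 362 and 353 (0.06, -0.15 to 0.28). *ght1+* was lower in both libraries, at 248 and 231 against 291 and 283, but missed the threshold (-0.26, limma adjusted p = 0.0657). It was called lower by limma without the mean-variance trend (-0.26, adjusted p = 0.0417) and with quantile normalization (-0.28, 0.0492). *ght6+* had 6.27 to 8.26 and *ght7+* 1.04 to 4.48 normalized counts in the 4 libraries. With 2 libraries a group, this experiment has few degrees of freedom, and nothing says that the libraries came from separate transformants.

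**Figure D5:**
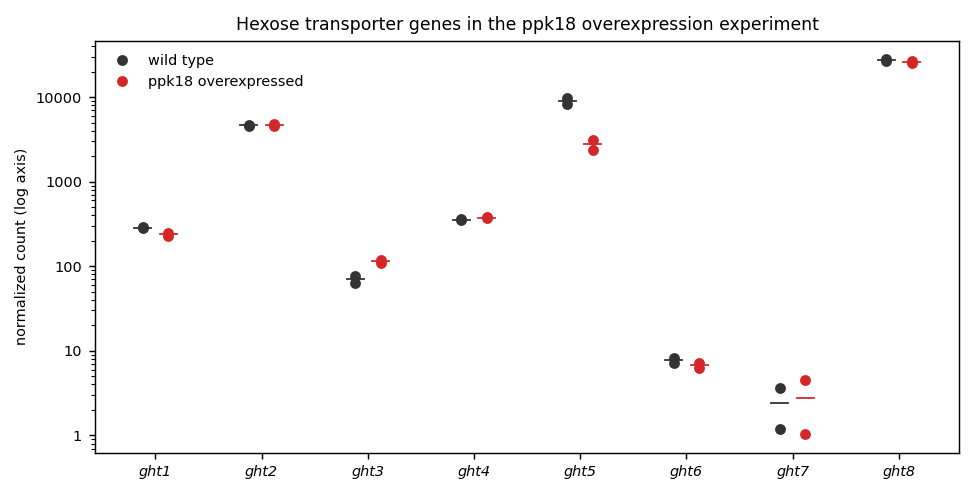
Normalized counts (log axis) of the 8 *ght* genes in the 2 wild type libraries (black) and the 2 libraries with *ppk18+* overexpressed (red), with bars at the means. *ght5+* is lower in both overexpression libraries (3125 and 2384 against 9652 and 8205) and *ght3+* higher, while *ght2+*, *ght4+* and *ght8+* lie close to wild type.

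Regulators of the family were followed as a list of 15 genes of glucose repression and of Ght5 at the cell surface, all 15 of which were tested. In wild type, 11 rose and 1 fell after 1 h, where 40.3% of all genes rose and 37.5% fell (median log2 change 0.44, against 0.04 for all genes). *gad8+*, the kinase downstream of TORC2, rose from 2019 ± 79.0 to 3858 ± 162 normalized counts (1.91-fold, limma adjusted p = 1.13e-15), and *aly3+*, the arrestin that sends Ght5 for degradation, from 1749 ± 11.4 to 2839 ± 140 (1.62-fold, adjusted p = 2.52e-09). At 1 h 8 regulators were lower and 1 higher in *igo1*∆ than in wild type, and 9 lower and 1 higher in *ppk18*∆ *cek1*∆ (medians -0.16 and -0.18, against 0.03 and 0.02 for all genes). Of all genes 29.9% and 28.7% were lower and 32.6% and 30.5% higher. *aly3+* was at 57.6% of wild type in *igo1*∆ (limma adjusted p = 9.56e-10). At 4 h the list was mixed, with 5 higher and 6 lower in *igo1*∆ and 4 and 3 in *ppk18*∆ *cek1*∆, where 38.8% and 36.4%, and 37.6% and 34.8%, of all genes were called. *scr1+*, the repressor itself, did not differ from wild type by the test in either mutant at 4 h (limma adjusted p = 0.659 and 0.408). It was not flat, since its group means over both experiments, which were normalized separately, ranged from 389 to 6287. With *ppk18+* overexpressed 10 of the 15 were higher and none lower (median 0.23), against 29.6% and 27.8% of all genes, with *scr1+* higher 1.64-fold (adjusted p = 1.04e-05 by limma).

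Of 9 genes for the use of hexose and gluconate, 5 were higher and 3 lower in each mutant than in wild type at 4 h (medians 0.25 in *igo1*∆ and 0.23 in *ppk18*∆ *cek1*∆, against 0.02 and 0.03 for all genes). Of all genes, 38.8% and 37.6% were higher and 36.4% and 34.8% lower in the 2 mutants. The invertase gene *inv1+*, whose product splits sucrose into hexoses outside the cell, was at 255 ± 36.2 in wild type, 22997 ± 3915 in *igo1*∆, with 21142 ± 4126 in the other mutant (SD, n = 3), 90.2-fold and 82.9-fold higher (limma adjusted p = 2.85e-15 and 5.43e-15). Like *ght2+*, it was lower than wild type at 1 h in *igo1*∆ (33.0% of wild type, limma adjusted p = 5.11e-05). *hxk2+*, a hexokinase, was lower in both mutants at 4 h, at 32.2% and 39.5% of wild type. The pentose phosphate genes *zwf1+* (2.50-fold and 2.37-fold) and *gnd1+* (1.69-fold and 1.62-fold) were higher. *idn1+*, the gluconate kinase that acts on the substrate of Ght3, was 1.19-fold and 1.17-fold higher (limma adjusted p = 0.00867 and 0.0157), and fell rather than rose with *ght3+* in wild type at 1 h (to 38.4% of MM, adjusted p = 2.83e-13). With *ppk18+* overexpressed, 5 of the 9 were higher and 2 lower (median 0.17), where 29.6% of all genes were higher and 27.8% lower. Among those higher were *inv1+* and *fbp1+*, both known to be repressed by glucose, at 2.52-fold and 2.79-fold (limma adjusted p = 5.04e-05 and 1.55e-05).

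Of 3 other sugar and polyol transporters, *sut1+*, a sucrose and maltose carrier, went in the direction of *ght3+* at 1 h, at higher counts. This held in wild type and in *igo1*∆ against wild type. *sut1+* rose from 1286 ± 51.6 to 3383 ± 27.5 in wild type at 1 h (2.63-fold, limma adjusted p = 2.97e-16). In *igo1*∆ it stood at 50.7% of wild type at that time (adjusted p = 1.93e-12) and had passed wild type by 4 h (1.24-fold, adjusted p = 6.51e-05). *itr2+*, an inositol transporter, was at 78.6% and 78.7% of wild type in the mutants at 4 h (limma adjusted p = 1.79e-07 and 2.12e-07). The other list member, *itr1+*, was 1.11-fold and 1.24-fold higher (adjusted p = 0.0221 and 7.18e-05 by limma).

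Coding neighbours moved with some members and not with others. SPCC1235.18, next to *ght5+*, was lower with it in wild type at 1 h (27.2% of MM, limma adjusted p = 5.9e-05) and in both mutants at 4 h (43.4% and 47.8% of wild type, adjusted p = 0.00595 and 0.0142), whereas *dga1+* on the other side of *ght5+* rose 1.58-fold in wild type at 1 h. SPCC1529.01, next to *ght1+*, was at 13.2% of MM in wild type at 4 h, where *ght1+* was at 91.7%, and at 4 h it was 2.05-fold higher in *igo1*∆ than in wild type (limma adjusted p = 1.36e-10), where *ght1+* was lower. *mal1+*, a maltase gene beside *ght4+*, rose 2.26-fold at 1 h in wild type as *ght4+* fell. SPCC1235.17, on the other side of *ght6+*, was 4.41-fold and 4.62-fold higher in the mutants at 4 h (limma adjusted p = 1.13e-12 and 8.33e-13), with no call for *ght6+*. Around *ght7+*, SPBC1348.12 was 2.33-fold and 2.40-fold higher in the mutants at 4 h (limma adjusted p = 4.93e-09 and 3.42e-09), the direction of *ght7+*. On the other side, SPBPB8B6.02c had 77.7 ± 10.9 in wild type at 4 h, 135 ± 12.5 in *igo1*∆ and 119 ± 18.2 in *ppk18*∆ *cek1*∆. Both neighbours of *ght3+* rose in wild type at 4 h, as it did (*shu1+* from 1.31 ± 2.28 to 16.9 ± 4.70 and SPAPJ695.01c from 1.01 ± 1.75 to 74.6 ± 11.0 normalized counts, limma adjusted p = 2.11e-06 and 1.8e-10). In the mutants at 4 h, however, *shu1+* reached 413 ± 130 in *igo1*∆ and 195 ± 26.8 in *ppk18*∆ *cek1*∆, above wild type (limma adjusted p = 3.24e-08 and 1.86e-06), where *ght3+* did not differ by the test. SPAPJ695.01c was not called against wild type there (adjusted p = 0.258 and 0.262).

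Over the 27 libraries and 5444 other genes with a mean of at least 50, the genes with the highest Pearson's r of log2 counts with *ght2+* were *rtc3+* (0.985) and *rds1+* (0.977). Like *ght2+*, *rtc3+* was at 4488 ± 360 in wild type at 4 h and at 23246 ± 3509 and 19582 ± 2609 in *igo1*∆ and *ppk18*∆ *cek1*∆. For *ght3+* they were *ste20+* (0.969), a subunit of TORC2 that is also on the list of regulators, and *gst3+* (0.963). For *ght7+* they were *ppk8+* and *mok13+* (0.984 each). *ssa1+*, a heat shock protein of the Hsp70 family, came first for *ght1+* (0.895), *ght5+* (0.888) and *ght8+* (0.927), and *plb1+* for *ght4+* (0.910). For *ght6+* no gene exceeded 0.504. These correlations mostly reflect differences between the 9 groups and are a description only.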

How the data were processed

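RNA was sequenced by the authors from 27 time course and 4 overexpression libraries. Per the labels, reads were trimmed with Trimmomatic 0.38, aligned with HISAT2 2.1.0 to ASM294v2, counted with featureCounts (Subread 1.6.3) and divided by DESeq2 size factors. The deposited signal values are these normalized counts. All values (100%, to within 0.1 read) were multiples of 1 read's worth, so read numbers could be recovered for the count models. Each table was normalized by itself and was tested by itself. Of 7001 rows, 6856 matched RefSeq identifiers.

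The fit was made on log2(normalized count + 1) with limma 3.58.1 (mean-variance trend, R 4.3.3) for genes with a mean of at least 10, with 1 mean for each of the 9 groups, and *p*-values were adjusted by Benjamini-Hochberg over all genes tested (threshold 0.05). Fold changes of low genes are understated on this scale, and folds are ratios of mean normalized counts. Alternatives were other pseudocounts, filters, scalings and variance models, a replicate block, edgeR 4.0.16, DESeq2 1.42.0 and leaving out libraries. Deviations of same-numbered libraries correlated above 0.1 in all 3 pairs for *igo1*∆ against wild type at 1 h (0.17 to 0.26), *igo1*∆ at 4 h against MM and *igo1*∆ against *ppk18*∆ *cek1*∆ in MM and at 1 h, so these were taken as paired, and the fit with the replicate number as a block is given where it changes a call. Replicate libraries differed beyond counting noise. A limma *p*-value sets a group difference against the spread between these libraries, pooled over the groups in the fit and drawn toward the mean-variance trend.

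The members and lists were chosen with earlier results of these data known. Named genes were the members, their coding neighbours, the 2 genes most like each, and members of the lists that passed the test. Sequence shared by members was counted in the reference genome as exact 50-base windows of exon. No reads were used for this, and the read length was not considered. Scripts were tested on simulated data.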

Additional observations from a re-analysis of the deposited data

Results flagged for a closer look

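The following values are differences in change: the log2 change of a member from MM in a mutant minus that in wild type, tested as interaction terms by limma with Benjamini-Hochberg adjustment over 6036 genes. All were singled out because the mutant's change from MM differed from that of wild type by this test. At 1 h in *igo1*∆ they were -1.0 for *ght1+* (adjusted p = 0.038), -0.99 for *ght2+* (3.05e-07), -1.99 for *ght3+* (2.25e-07) and 0.92 for *ght7+* (0.039). Those of *ght1+* and *ght7+* lost their call without some single libraries, and that of *ght7+*, which rests on 1 to 5 reads a library in MM, was also lost in the count models (edgeR 0.98 and DESeq2 1.07, adjusted p = 0.283 in both).

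At 4 h in *igo1*∆ the differences were -1.41 for *ght1+* (limma adjusted p = 0.00313), 1.85 for *ght2+* (2.79e-12), -2.30 for *ght5+* (0.0043), 3.55 for *ght7+* (1.18e-08) and -0.91 for *ght8+* (0.00326). *ght2+* and *ght7+* thus rose more than in wild type. *ght1+*, *ght5+* and *ght8+* fell from MM in *igo1*∆ (log2 changes -1.54, -2.26 and -0.97). In wild type none of these was called (-0.13, 0.04 and -0.06).

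In *ppk18*∆ *cek1*∆ the differences at 1 h were -0.96 for *ght2+* (limma adjusted p = 5.75e-07), -2.24 for *ght3+* (5.44e-08) and -0.63 for *ght4+* (0.0347, lost without some single libraries). At 4 h they were -1.12 for *ght1+* (0.017, but 0.0536 without wild type replicate 2 in MM, 0.0521 without wild type replicate 1 at 4 h, 0.0595 without mutant replicate 2 at 4 h and 0.0737 without replicate 1 of all groups), 2.01 for *ght2+* (8.09e-13), -1.91 for *ght5+* (0.0164) and 2.87 for *ght7+* (4e-07). The value of *ght8+* at 4 h was -0.56 and missed the threshold (adjusted p = 0.0576 by limma). It passed by edgeR (-0.62, adjusted p = 0.0421), with equal library totals (-0.76, 0.0113), with quantile normalization (-0.89, 0.00808) and with only the groups compared in the fit (0.0133), and without wild type replicate 3 in MM (-0.64, 0.0455), mutant replicate 2 in MM (-0.67, 0.0346) or mutant replicate 3 at 4 h (-0.63, 0.049).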

How the results depend on the processing

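Of the values recomputed for single members under the alternatives, 3302 kept their side of the threshold, 80 lost the call and 36 gained one. Among the 3302, values called in neither fit were counted whichever their direction. A further 3 turned and were called under the alternative. The latter were all differences of wild type at 4 h from MM and, except under quantile normalization, lay near the shift of the median gene: with equal library totals *ght4+* had 0.42 and *ght8+* 0.41, and with quantile normalization *ght8+* had 0.61. The number of members called in that comparison was 5 with equal totals in place of 3. With *ppk18+* overexpressed it was 1 in place of 2 with no filter on low counts, 3 without the mean-variance trend or with quantile normalization, and 1 to 2 when single libraries were left out. Leaving out single libraries gave 3 to 5 members for wild type at 4 h against 1 h, 0 to 1 for *igo1*∆ against wild type in MM (the 1 being *ght7+*, without *igo1*∆ replicate 3), and 2 to 4 for the difference in change at 1 h in *igo1*∆, which was also 2 without replicate 1 of all groups. The cause was not tested in any of these. The count model edgeR called 4606 genes at 4 h in *igo1*∆ against wild type (limma 4536) and 3384 in the overexpression experiment (3367).

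With the replicate number as a block in a fit of the groups compared alone, an alternative added after the data were seen, 1 member was called for *igo1*∆ against wild type in MM (*ght5+*, 0.42, adjusted p = 0.0338 by limma). There *ght5+* was higher in *igo1*∆ for each number. Same-numbered libraries correlated at -0.07 to 0.14 over all genes and were not taken as paired, which does not show that they were unpaired. In other comparisons not taken as paired, this block also called the change of *ght5+* from 1 h to 4 h in *igo1*∆ (0.18, limma adjusted p = 0.0202) and in *ppk18*∆ *cek1*∆ (0.49, 0.00137). It called *ght4+* at 4 h in both mutants against wild type (0.00632 and 0.0183) and the difference in change of *ght8+* at 4 h in *ppk18*∆ *cek1*∆ (0.00104). The block changed no other call of a member in the paired comparisons than that of *ght5+* at 1 h. In the overexpression experiment same-numbered libraries correlated at -0.14, and with the numbers crossed 3514 genes were called in place of 3367. Calls over all genes moved by more than 1.5 times, among alternatives that kept all libraries, in comparisons with few calls. For *igo1*∆ against wild type in MM there were 130, or 81 by edgeR, 51 with the groups compared alone and 69 with the block as well. For *ppk18*∆ *cek1*∆ in MM there were 101, or 20 and 39 in the latter fits. Between the mutants there were 16 at 1 h, or 55 by DESeq2, 28 by edgeR and 32 with the block, and 362 at 4 h, or 77 and 18 with the groups compared alone, without and with the block.

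Depth limits *ght6+* (at most 22.1 normalized counts) and *ght7+* in MM. Shared sequence limits how far *ght1+*, *ght5+*, *ght6+* and *ght8+*, and *ght3+* and *ght4+*, are told apart.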
